A study of Homo sapiens with 12 samples.

Results

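The mitosis genes are 48 genes whose proteins take a cell into mitosis, build the spindle, hold chromosomes to it, check their attachment and split the cell. They are a list of symbols, found in the count table through their Ensembl IDs. The rule that finds them uses no measured value, but the members were chosen with earlier results of these data known. Their shares beside those of all genes are therefore a description. All 48 are among the 62702 genes of the table, and all 48 passed the filter on low counts, which left 12301 genes to test. RNA with poly(A) tails was measured by BRB-seq, which tags the 3′ ends of mRNAs with a barcode per sample, in 786-O, an established line of human clear cell renal cell carcinoma. The study asks how HIF2A, the hypoxia-inducible factor that stays active in this cancer, depends on YAP/TAZ and AP-1 for its transcription programme.

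The 12 libraries fall into 4 groups of 3. In shHIF2A, shRNA targets HIF2A, the protein of EPAS1. In shJUNs, JUN, JUNB and JUND, subunits of AP-1, are targeted, and in shYAPTAZ the targets are YAP1 and WWTR1, which encodes TAZ. The fourth group is the parental line. Every group, the parental one included, was kept in doxycycline, the inducer of the shRNAs, for 72 hours. Puromycin, blasticidin and hygromycin served to select the knockdown lines, according to the number of targets. A line with a non-targeting shRNA was not analysed here, so silencing of the targets and the carrying and selection of an shRNA cannot be told apart. The labels call the libraries of a group technical replicates, and p-values therefore measure only the spread between these libraries.

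Most of these mRNAs are made in waves within each cell cycle. In resting and early cycling cells the DREAM complex keeps their promoters silent through a short sequence, the CHR element. Later the MuvB core of that complex joins MYBL2 and FOXM1 and switches them on, often with NF-Y at CCAAT boxes. Kinases and cyclins such as CDK1 and CCNB1 then start mitosis, and the anaphase-promoting complex with CDC20 ends it by marking cyclins and securin for destruction. In bulk RNA, fewer cells in late cycle and less mRNA per cell cannot be told apart.

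Total counts were 2867807 to 3526537 in shHIF2A, 3684052 to 4469956 in shJUNs, 2272459 to 4127139 in shYAPTAZ and 2885287 to 3603339 in parental libraries. The mitosis genes took 8409 to 23674 counts of a library. The mRNAs of the targets were lower in their own knockdown: EPAS1 by 12.7-fold in shHIF2A, JUND by 9.2-fold and JUN by 1.79-fold in shJUNs, and YAP1 by 4.78-fold and WWTR1 by 2.035-fold in shYAPTAZ. JUNB was 1.697-fold lower in shJUNs with overlapping libraries. EPAS1 was also lower in shJUNs (5.47-fold) and, with overlapping libraries, in shYAPTAZ (1.805-fold). The JUNB call in shJUNs was lost without each of 5 single libraries and the EPAS1 call in shYAPTAZ without each of 4, with adjusted p up to 0.2 for JUNB (without parental replicate 3) and up to 0.173 for EPAS1 (without parental replicate 1). Other targets changed too: JUN was 1.91-fold and JUND 1.61-fold lower in shHIF2A, JUND was 2.09-fold lower in shYAPTAZ, and WWTR1 was 1.62-fold higher in shHIF2A and 1.42-fold higher in shJUNs, the last call being lost without parental replicate 1 or shJUNs replicate 1 or 2 (adjusted p = 0.0687 to 0.0846). All 8 markers of a renal carcinoma line were measured, with a summed level of 10400 to 18400 CPM (a gene's counts scaled to its library's TMM-adjusted size). The 5 blood markers summed to 0 to 2.61 CPM with 3 at 0 in every library, the 4 endothelial markers to 0 to 0.964 CPM with 2 at 0, and the 4 fibroblast markers, among them collagens, to 24.1 to 52.2 CPM.

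The promoters are shown because the CHR element is the shared control sequence of this gene class. RefSeq promoters (build GRCh38.p14, 250 bases before to 50 after a start) matched 40 of the 48 genes, with 51 windows of 300 bases. The element, searched as TTTGAA or TTCGAA on both strands, stood in 34 of the 51 windows (66.7%), against 16.4% of all 35116 promoters and 11.7% of the 13968 promoters of tested genes. Within the stretch from 100 before to 50 after the start it stood in 58.8% of the mitosis windows, against 7.4% of all promoters and 4.8% of those of tested genes. A CCAAT box (CCAAT on either strand) was in 72.5%, against 34.6% of all and 34.9% of tested promoters, and both motifs together in 52.9%, against 6.4% and 4.8%. The next 6 stretches, from 100 before to 20 after the start and read along the gene, belong to 6 genes named below for their changes. They were picked for holding a CHR element within the stretch, so they do not show how common it is. CENPF and TOP2A, among others, were passed over because their elements lay outside the stretch, and KIF20A because its window had none. SMC4 and CDC25B also have windows without the element, which are not printed. Capitals mark CHR elements and CCAAT boxes, in the reverse complement where they lie on the other strand.
SMC4 (chr3:160399550-160399669, + strand): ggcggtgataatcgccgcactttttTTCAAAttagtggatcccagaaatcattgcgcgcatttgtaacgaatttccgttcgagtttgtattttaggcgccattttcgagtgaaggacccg
CCNB2 (chr15:59105046-59105165, + strand): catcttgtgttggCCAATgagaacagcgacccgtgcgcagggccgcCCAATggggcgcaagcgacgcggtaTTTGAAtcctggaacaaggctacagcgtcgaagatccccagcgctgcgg
KIF23 (chr15:69414249-69414368, + strand): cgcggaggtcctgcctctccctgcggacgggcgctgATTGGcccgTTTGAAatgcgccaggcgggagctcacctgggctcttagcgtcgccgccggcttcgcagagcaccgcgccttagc
MKI67 (chr10:128126404-128126523, - strand): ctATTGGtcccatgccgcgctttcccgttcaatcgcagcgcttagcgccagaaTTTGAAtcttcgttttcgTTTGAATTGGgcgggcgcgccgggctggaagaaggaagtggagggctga
CDC25B (chr20:3796210-3796329, + strand): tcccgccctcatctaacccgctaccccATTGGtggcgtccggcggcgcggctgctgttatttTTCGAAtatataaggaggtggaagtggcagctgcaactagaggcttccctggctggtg
CENPA (chr2:26785956-26786075, + strand): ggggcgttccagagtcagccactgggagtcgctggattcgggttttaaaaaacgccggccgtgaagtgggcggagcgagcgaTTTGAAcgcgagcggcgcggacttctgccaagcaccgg
The CCNB2 stretch holds 2 CCAAT boxes and a CHR element at -29. The MKI67 stretch holds 2 CHR elements, and the second shares a base with a CCAAT box. SMC4 and CENPA show no CCAAT box in these letters. CDC25B has the TTCGAA form, which was found in only 3 of the 51 mitosis windows (5.9%), against 1.4% of all promoters and 1.7% of those of tested genes.

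The motifs of the silenced factors were searched in the same windows. The AP-1 motif TGACTCA was in 0 of 51 windows, against 4.9% of all and 3.6% of tested promoters. The TEAD motif GGAATG, the site through which YAP and TAZ bind DNA with a partner, was in 15.7%, against 14.0% and 11.4%. The HIF core ACGTG was in 27.5%, against 21.4% and 25.7%, and the E2F motif GGCGGGAA in 7.8%, against 3.2% and 4.8%. All were searched on both strands, and overlapping matches were each kept. A match is a run of letters and not a bound site, and 300 bases say nothing of distant enhancers.

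Summed over the 48 genes, mitosis mRNA stood at 2437.5, 3401 and 4795 CPM in shHIF2A replicates 1 to 3, 3671, 4042 and 4171 CPM in shJUNs, 3987, 5443.5 and 5705 CPM in shYAPTAZ, against 5273, 5912.5 and 6423 CPM in parental. All shHIF2A and shJUNs libraries lay below all parental ones, while shYAPTAZ overlapped them. As a share of all counts this was 0.238% to 0.477% in shHIF2A, 0.370% to 0.427% in shJUNs, 0.387% to 0.574% in shYAPTAZ and 0.524% to 0.638% in parental libraries. The library numbered 1 was the lowest of its group in 4 of 4 groups, that numbered 3 was the highest, and that numbered 2 lay between. The mitochondrial share ran the other way, falling from replicate 1 to replicate 3 in each group. Replicate 1 held the lowest level of 43 of the 48 genes in shHIF2A, 28 in shJUNs, 40 in shYAPTAZ and 29 in parental. The same library also had the highest share of mitochondrial transcripts in each group, 9.37% in shHIF2A, 7.45% in shJUNs, 8.40% in shYAPTAZ and 7.64% in parental, against 6.33% to 8.49% in the other libraries. What the replicate number marks is not stated in the labels, and counts with each number left out in all groups stand with the results. The part of the mitochondrial share in the results was not tested.

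**Figure D1:**
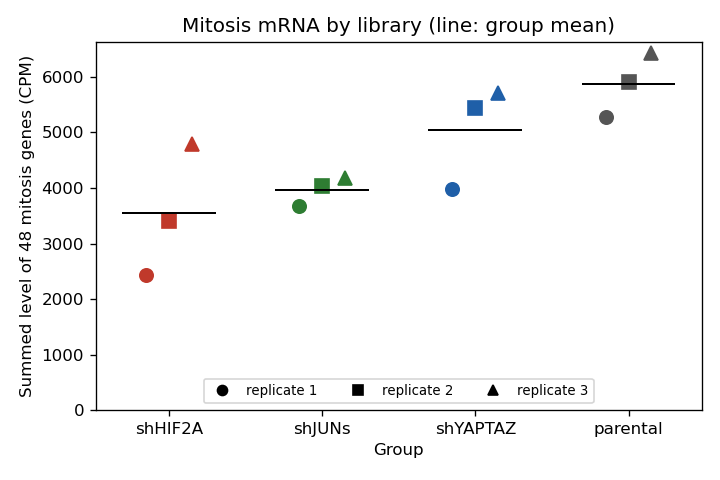
Summed level of the 48 mitosis genes (vertical axis, CPM) in each library, by group along the horizontal axis, with 1 point per library, its shape the replicate number and a line at the group mean. The shHIF2A libraries span 2437.5 to 4795 CPM and the shJUNs libraries 3671 to 4171 CPM, all below the lowest parental library at 5273 CPM.

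Within shHIF2A the 3 libraries differed widely. Over members with a mean of at least 20 CPM in the group, the median coefficient of variation was 36.6% in shHIF2A (42 genes), against 14.6% over all 6569 genes at that level. It was 13.1% in shJUNs against 11.8% over all genes, 23.8% in shYAPTAZ against 19.4%, and 15.7% in parental against 16.2%. The median ratio of the highest to the lowest library was 2.08 in shHIF2A, 1.29 in shJUNs, 1.59 in shYAPTAZ and 1.36 in parental. shHIF2A replicate 1 had the lowest of the 12 values for 34 of the 48 genes, and parental replicate 3 had the highest for 17. These spreads are a description and no test of them was made.

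In shHIF2A cells 22 of the 48 genes (45.8%) fell and 0 rose against parental (edgeR quasi-likelihood, Benjamini-Hochberg adjusted p under 0.05 over all genes tested). Of all genes tested, 8.8% fell and 9.84% rose. In 47 of 48 the change was negative, with a median log2 change of -0.74, against 0.01 over all genes. For 27 of the 48 all shHIF2A libraries lay below all parental ones, against 17.3% of all genes. The number that fell was 13 without shHIF2A replicate 1 or without parental replicate 3, and 34 without shHIF2A replicate 3. With every replicate 1 left out it was 14, and with every replicate 2 left out it was 3, while the genes called lower over the whole table were 308 in place of 1082. Counts over all genes are not given here for the other leave-out runs of this comparison. A change in those runs is therefore not shown to be particular to mitosis genes.

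In shJUNs cells 18 of the 48 (37.5%) fell and 0 rose against parental. Over all genes 8.93% fell and 10.3% rose. The change was negative in 45 of 48, the median log2 change was -0.61 against 0.00 over all genes, and in 31 of 48 the libraries did not overlap, with shJUNs below, against 19% of all genes. Without shJUNs replicate 1 the number was 9, and without every replicate 2 it was 4. For these runs, and the leave-out runs of the comparisons below, counts over all genes are not given here. A drop in them is therefore not shown to be particular to mitosis genes. The 2 comparisons share the parental libraries.

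In shYAPTAZ cells 6 of the 48 (12.5%) fell and 1 rose against parental. Over all genes 12.3% fell and 13% rose, so the share of mitosis genes that fell was near that of all genes. The change was negative in 33 of 48 with a median log2 change of -0.23, against 0.02 over all genes, and in 10 of 48 all shYAPTAZ libraries lay below, against 18.1% of all genes. Without parental replicate 2 or without shYAPTAZ replicate 1 or 2 the number that fell was 3, without parental replicate 3 it was 2, and without every replicate 2 it was 0. The test over the 4 groups together called 29 of the 48, against 38.7% of all genes, and 4 without every replicate 2.

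**Figure D2:**
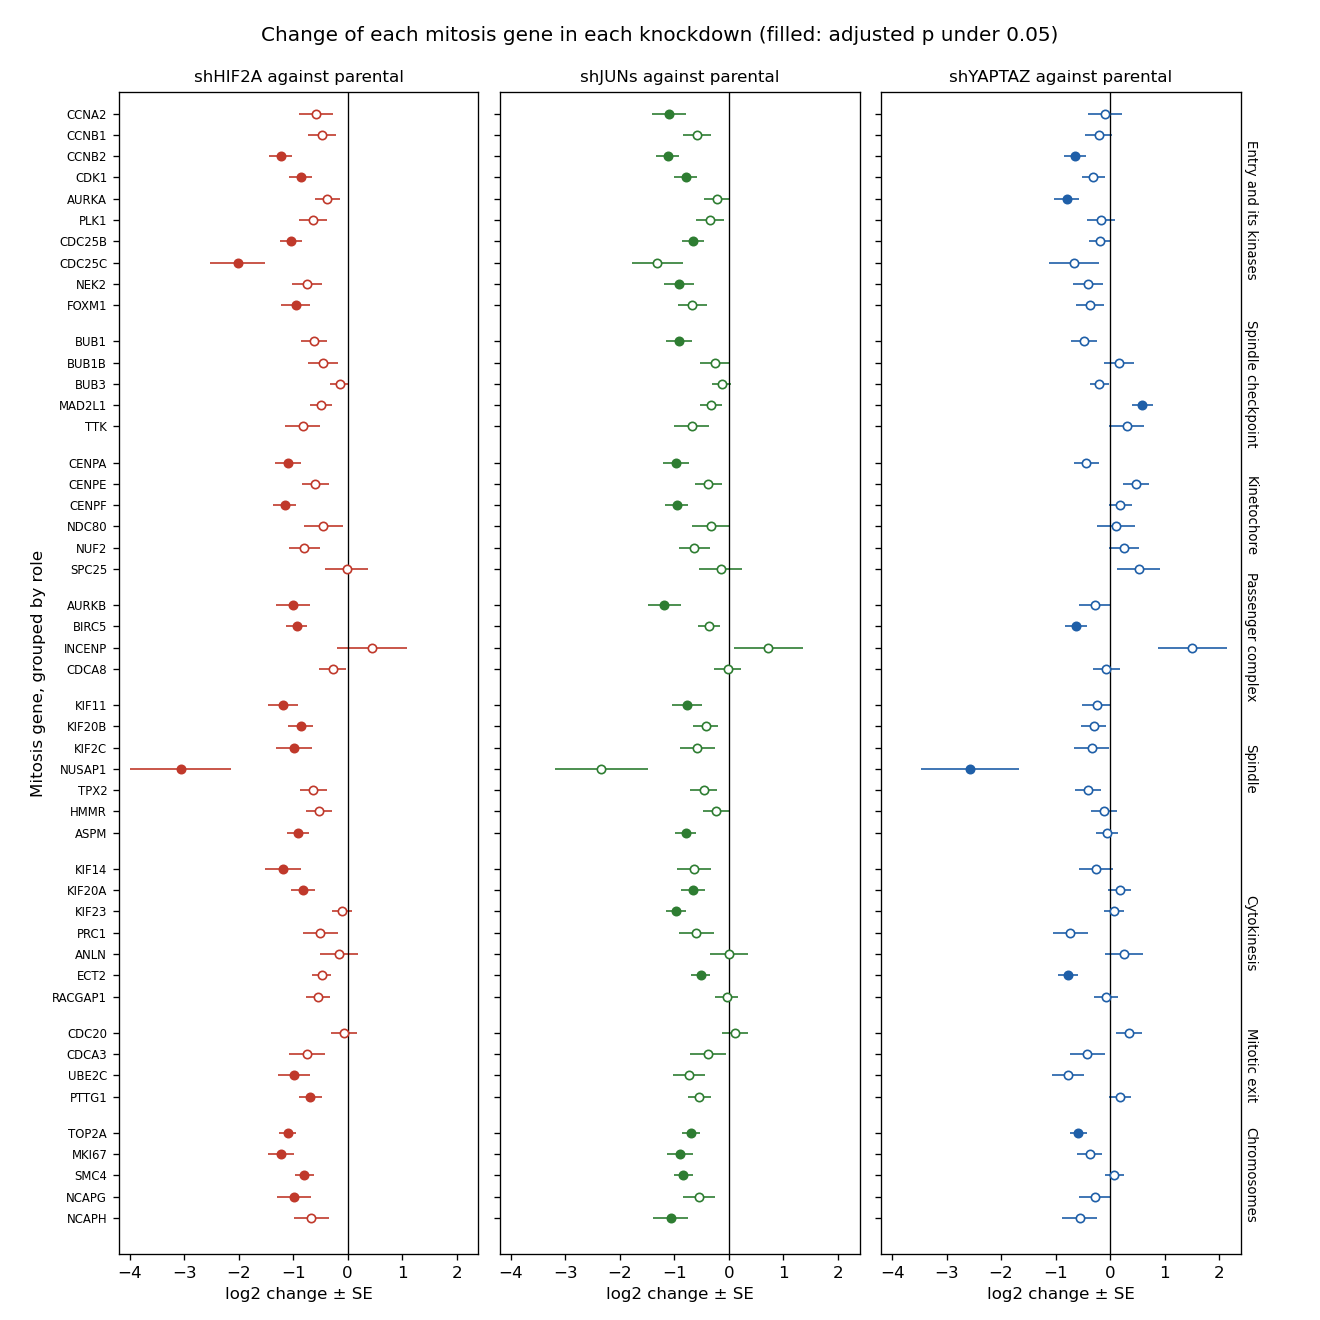
Log2 change of each mitosis gene against parental (horizontal axis, ± SE from the edgeR fit) in shHIF2A, shJUNs and shYAPTAZ, with genes down the page grouped by role and filled points for adjusted p under 0.05. The shHIF2A points lie left of 0 for 47 genes, with 22 filled, the shJUNs points for 45, with 18 filled, and the shYAPTAZ points for 33, with 6 filled on the left and 1, MAD2L1, on the right.

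The counts by role below stand beside 8.8% of all genes lower in shHIF2A, 8.93% in shJUNs and 12.3% in shYAPTAZ. A role has 4 to 10 genes, and the counts of 0 to 2 that fell in shYAPTAZ are read against 6 of the 48 as a whole, which is near that share. Genes of entry into mitosis held the largest number of calls over the 3 comparisons with parental, with 5 of 10 lower in shHIF2A, 5 in shJUNs and 2 in shYAPTAZ. CCNB2, a B-type cyclin that activates CDK1, had 61.2, 60.2 and 97.04 CPM in shHIF2A, 71.9, 84.9 and 77.1 in shJUNs, 77.2, 115 and 133 in shYAPTAZ, against 145, 175 and 189 in parental. Each knockdown library was below the lowest parental library. CCNB2 fell 2.34-fold (log2 change -1.23 ± 0.21 SE, adjusted p = 0.000274) in shHIF2A, 2.18-fold (log2 change -1.12 ± 0.207 SE, adjusted p = 0.000545) in shJUNs and 1.56-fold (log2 change -0.64 ± 0.206 SE, adjusted p = 0.0243) in shYAPTAZ by edgeR. The shYAPTAZ call was lost without parental replicate 2 or 3 or shYAPTAZ replicate 1 or 2 (adjusted p = 0.0546 to 0.103). CDK1, the kinase itself, had 51.02, 70.5 and 102 CPM in shHIF2A, 62.35, 85.99 and 85.8 in shJUNs, 89.4, 116 and 120 in shYAPTAZ, against 127, 132 and 145 in parental. It also showed no overlap with parental in any knockdown. It fell 1.81-fold in shHIF2A (adjusted p = 0.00666) and 1.73-fold in shJUNs (adjusted p = 0.0104), and in shYAPTAZ it was 1.24-fold lower without passing (adjusted p = 0.306). The shJUNs call of CDK1 was lost without shJUNs replicate 1 (adjusted p = 0.0772).

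CDC25B and CDC25C are phosphatases that remove the inhibitory phosphates from CDK1. CDC25B had 48.1, 37.1 and 45.9 CPM in shHIF2A, 49.9, 55.55 and 65.03 in shJUNs, 73.1, 88.8 and 74.9 in shYAPTAZ, against 113, 89.4 and 67.55 in parental. The shHIF2A libraries lay closest together and lowest. CDC25B fell 2.06-fold in shHIF2A (adjusted p = 0.0012) and 1.58-fold in shJUNs (adjusted p = 0.0241), the last lost without parental replicate 1 or 2 or shJUNs replicate 1 or 2 (adjusted p = 0.0599 to 0.156). CDC25C, with 592 counts over all libraries, had 1.45, 7.798 and 9.81 CPM in shHIF2A, 8.65, 5.875 and 16.1 in shJUNs, 14.1, 19.4 and 14.7 in shYAPTAZ, against 35.6, 15.5 and 25.7 in parental. It fell 4.06-fold in shHIF2A (adjusted p = 0.00668) and in shJUNs missed the threshold with overlapping libraries (adjusted p = 0.0531).

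FOXM1, the transcription factor of the late cell cycle, had 17.1, 37.4 and 39.9 CPM in shHIF2A, 35.95, 38.99 and 39.6 in shJUNs, 38.1, 43.9 and 58.6 in shYAPTAZ, against 57.2, 51.2 and 73.8 in parental. All shHIF2A and shJUNs libraries were below the lowest parental one. FOXM1 fell 1.94-fold in shHIF2A (adjusted p = 0.0153), a call lost without parental replicate 3 or shHIF2A replicate 1 (adjusted p = 0.0749 to 0.0887). It did not pass in shJUNs (adjusted p = 0.0765) or shYAPTAZ (adjusted p = 0.338). CCNA2, the cyclin of S phase and early mitosis, and NEK2, a kinase that parts the centrosomes, fell in shJUNs by 2.14-fold and 1.89-fold (adjusted p = 0.023 and 0.0239). The CCNA2 call was lost without parental replicate 1, 2 or 3 or shJUNs replicate 1 or 2 (adjusted p = 0.06 to 0.101). The NEK2 call was lost without parental replicate 1 or 3 or shJUNs replicate 1 or 3 (adjusted p = 0.0612 to 0.123).

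AURKA, a kinase of the spindle poles, was called in shYAPTAZ. It had 59.4, 75.2 and 124 CPM in shHIF2A, 82.98, 103 and 99.45 in shJUNs, 46.3, 65.6 and 78.6 in shYAPTAZ, against 109, 101.5 and 123 in parental. In shYAPTAZ all 3 libraries lay below all parental ones and AURKA fell 1.74-fold (log2 change -0.80 ± 0.231 SE, adjusted p = 0.0137) by edgeR. The call was lost without parental replicate 3 or shYAPTAZ replicate 1 (adjusted p = 0.0508 to 0.0562). In shHIF2A it was 1.29-fold lower (adjusted p = 0.273) and in shJUNs 1.17-fold lower (adjusted p = 0.541), both with overlapping libraries. The differences of shYAPTAZ from shHIF2A (adjusted p = 0.223) and from shJUNs (adjusted p = 0.0961) did not pass, so AURKA is not shown to differ between knockdowns. CCNB1 and PLK1, a cyclin and a kinase at the centre of mitotic entry, passed in no knockdown, with folds between 1.12-fold and 1.56-fold lower and adjusted p of 0.0884 or more.

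The spindle checkpoint, which holds anaphase until every kinetochore is attached, gave 0 of 5 calls in shHIF2A and 1 of 5 lower in shJUNs. BUB1, its kinase at kinetochores, had 31.6, 60.5 and 77.4 CPM in shHIF2A, 45.7, 44.6 and 47.6 in shJUNs, 48.6, 69.7 and 67.7 in shYAPTAZ, against 77.8, 90.25 and 92.1 in parental. BUB1 fell 1.89-fold (log2 change -0.92 ± 0.241 SE, adjusted p = 0.00949) in shJUNs by edgeR. MAD2L1, which binds CDC20 to block it, had 45.5, 47.4 and 77.8 CPM in shHIF2A, 61.5, 61.96 and 66.6 in shJUNs, 119, 116 and 125 in shYAPTAZ, against 87.25, 69.7 and 81.7 in parental. The shYAPTAZ libraries were the 3 highest of all 12. MAD2L1 rose 1.51-fold (log2 change 0.60 ± 0.194 SE, adjusted p = 0.0267) in shYAPTAZ against parental by edgeR, the one rise among the 48 genes. This call was lost without parental replicate 2 or 3 or shYAPTAZ replicate 2 or 3 (adjusted p = 0.055 to 0.119). Against the other knockdowns shYAPTAZ was 2.12-fold above shHIF2A (adjusted p = 0.000449) and 1.895-fold above shJUNs (adjusted p = 0.00202), and neither call was lost when 1 library was left out. BUB3, a partner of BUB1 that other complexes use too, had the smallest shHIF2A change of the group, log2 -0.15 (adjusted p = 0.615).

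At the kinetochore, the plate that joins chromosome and microtubules, 2 of 6 genes fell in shHIF2A, the same 2 in shJUNs and 0 in shYAPTAZ. CENPF, a large protein of the outer kinetochore, had 81.7, 121 and 135 CPM in shHIF2A, 104, 167 and 119 in shJUNs, 268, 322 and 268 in shYAPTAZ, against 176, 286 and 289 in parental. The shHIF2A and shJUNs libraries were all below the lowest parental library, and the shYAPTAZ libraries overlapped parental. CENPF fell 2.23-fold (log2 change -1.16 ± 0.213 SE, adjusted p = 0.000654) in shHIF2A and 1.93-fold (log2 change -0.95 ± 0.211 SE, adjusted p = 0.00285) in shJUNs by edgeR, calls that held in every alternative run. CENPA, the histone variant that marks centromeres, had 42.3, 63.3 and 87.2 CPM in shHIF2A, 72.8, 64.9 and 73.3 in shJUNs, 64.01, 103.5 and 135 in shYAPTAZ, against 136, 145 and 131 in parental. It fell 2.15-fold in shHIF2A (adjusted p = 0.0026) and 1.955-fold in shJUNs (adjusted p = 0.00597), neither lost without 1 library. In shYAPTAZ 5 of the 6 kinetochore genes had a positive log2 change, with a median of 0.23, against a negative median in shHIF2A (-0.70) and shJUNs (-0.50). Of these 6 genes, 0 had an unadjusted edgeR p under 0.05 in shYAPTAZ, where 6313 of all 12301 genes tested had a positive change. CENPE, a kinesin that carries chromosomes to the plate, had 33.3, 58.6 and 71.1 CPM in shHIF2A, 50.8, 84.1 and 54.3 in shJUNs, 87.6, 137.5 and 114 in shYAPTAZ, against 73.6, 85.75 and 85.4 in parental. All shYAPTAZ values of CENPE were above all parental ones, but the difference did not pass (adjusted p = 0.166). SPC25, with 571 counts in all, changed least in shHIF2A (log2 -0.01).

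The chromosomal passenger complex corrects wrong attachments and steers cytokinesis. AURKB, its kinase, had 15.1, 21.5 and 41.7 CPM in shHIF2A, 19.75, 18.4 and 30.2 in shJUNs, 31.3, 53.2 and 43.9 in shYAPTAZ, against 54.8, 49.5 and 52.01 in parental. It fell 2.01-fold in shHIF2A (adjusted p = 0.0246) and 2.28-fold in shJUNs (adjusted p = 0.00802). The shHIF2A call was lost without parental replicate 1 or 3 or shHIF2A replicate 1 or 2 (adjusted p = 0.0516 to 0.128), the shJUNs call under no single library. BIRC5, or survivin, had 97.1, 137 and 163 CPM in shHIF2A, 194, 204 and 192 in shJUNs, 121, 165 and 204 in shYAPTAZ, against 191, 277 and 291 in parental. BIRC5 fell 1.92-fold in shHIF2A (adjusted p = 0.00231) and 1.55-fold in shYAPTAZ (adjusted p = 0.0237), where the libraries overlapped and the call was lost without parental replicate 2 or 3 or shYAPTAZ replicate 1 or 2 (adjusted p = 0.0684 to 0.0993). INCENP, the scaffold, was the one gene with a positive change in shHIF2A, and with 226 counts in all 12 libraries it did not pass (adjusted p = 0.687). CDCA8, or borealin, averaged 58.2 ± 23.7 CPM in shHIF2A and 70.3 ± 11.65 CPM in parental (SD, n = 3 each).

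Of 7 spindle genes 5 fell in shHIF2A, 2 in shJUNs and 1 in shYAPTAZ. KIF11, the motor that pushes the poles apart, had 26.4, 32.4 and 50.8 CPM in shHIF2A, 48.8, 44.1 and 52.7 in shJUNs, 46.8, 66.5 and 93.7 in shYAPTAZ, against 55.1, 83.2 and 109 in parental. It fell 2.27-fold in shHIF2A (adjusted p = 0.0047) and 1.7-fold in shJUNs (adjusted p = 0.0496), the last lost without parental replicate 2 or 3 or shHIF2A replicate 2 or shJUNs replicate 1, 2 or 3 or shYAPTAZ replicate 2 (adjusted p = 0.0663 to 0.245). ASPM, a protein of the spindle poles, had 47.8, 58.6 and 83.02 CPM in shHIF2A, 75.9, 66.5 and 62.8 in shJUNs, 109, 130.2 and 102 in shYAPTAZ, against 119, 97.6 and 139 in parental. All shHIF2A and shJUNs libraries of ASPM were below parental, and it fell 1.88-fold in shHIF2A (adjusted p = 0.00286) and 1.73-fold in shJUNs (adjusted p = 0.00711), neither lost without 1 library. KIF20B fell 1.82-fold in shHIF2A (adjusted p = 0.0117), lost without shHIF2A replicate 1 or 2 (adjusted p = 0.0565 to 0.0744). KIF2C, which takes microtubules apart, fell 1.97-fold (adjusted p = 0.0439) with overlapping libraries, and the call was lost without parental replicate 1, 2 or 3 or shHIF2A replicate 1 or 2 or shJUNs replicate 1, 2 or 3 or shYAPTAZ replicate 2 (adjusted p = 0.0515 to 0.175).

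NUSAP1, which bundles spindle microtubules, had the largest fold of the 48 and the fewest reads, 97 counts in all. Its values were 0.580, 0.936 and 0.701 CPM in shHIF2A, 0.444, 0.801 and 2.46 in shJUNs, 2.72, 0.318 and 0.482 in shYAPTAZ, against 4.89, 6.19 and 8.197 in parental. It fell 8.37-fold in shHIF2A (adjusted p = 0.0243) and 5.94-fold in shYAPTAZ (adjusted p = 0.0407). The shHIF2A call was lost without parental replicate 2 or 3 or shHIF2A replicate 1, 2 or 3 (adjusted p = 0.0621 to 0.0858). The shYAPTAZ call was lost without parental replicate 1, 2 or 3 or shHIF2A replicate 2 or shJUNs replicate 2 or shYAPTAZ replicate 2 or 3 (adjusted p = 0.0527 to 0.158). The gene overlaps OIP5, which had 915 counts, and the rule for reads in shared stretches is not stated.

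Of 7 cytokinesis genes 2 fell in shHIF2A, 3 in shJUNs and 1 in shYAPTAZ. KIF23, the motor of centralspindlin in the midzone of the dividing cell, had 70.7, 100.1 and 107.5 CPM in shHIF2A, 48.4, 50.5 and 54.3 in shJUNs, 85.35, 111 and 118 in shYAPTAZ, against 100.5, 94.75 and 105 in parental. Only the shJUNs libraries stood apart, all below every other library. KIF23 fell 1.96-fold (log2 change -0.97 ± 0.186 SE, adjusted p = 0.000763) in shJUNs against parental by edgeR, and was 1.815-fold lower in shJUNs than in shHIF2A (adjusted p = 0.00519). It was 2.05-fold higher in shYAPTAZ than in shJUNs (adjusted p = 0.000448), and no single library ended any of these calls. Without every replicate 2 or every replicate 3, the call of shJUNs against shHIF2A was lost (edgeR adjusted p = 0.23 and 0.0578). The call of shYAPTAZ against shJUNs was lost without every replicate 2 (edgeR adjusted p = 0.0637). RACGAP1, its partner in centralspindlin, had 41.7, 76.7 and 74.97 CPM in shHIF2A, 96.7, 100.1 and 78.4 in shJUNs, 71.7, 97.75 and 98.6 in shYAPTAZ, against 78.9, 90.5 and 113 in parental and passed in no knockdown (adjusted p = 0.0827 in shHIF2A and 0.931 in shJUNs). ECT2, the exchange factor that switches on RhoA at the cleavage furrow, had 116, 116 and 171 CPM in shHIF2A, 128, 136 and 127 in shJUNs, 101, 107 and 119 in shYAPTAZ, against 167, 159 and 234 in parental. The shYAPTAZ libraries were the lowest group and did not overlap parental. ECT2 fell 1.71-fold (log2 change -0.78 ± 0.181 SE, adjusted p = 0.00284) in shYAPTAZ, a call that no single library ended, and 1.43-fold in shJUNs (adjusted p = 0.0436), lost without parental replicate 3 or shHIF2A replicate 2 or shJUNs replicate 1, 2 or 3 or shYAPTAZ replicate 2 (adjusted p = 0.0555 to 0.255). In shHIF2A it just missed (adjusted p = 0.0663), and ECT2 passed between no pair of knockdowns, although all shYAPTAZ libraries lay below all shJUNs libraries (log2 difference -0.26, adjusted p = 0.376).

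KIF20A, which brings the passenger complex to the midzone, had 37.4, 51.5 and 60.25 CPM in shHIF2A, 56.1, 61.15 and 48.05 in shJUNs, 92.6, 119 and 84.1 in shYAPTAZ, against 62.8, 97.6 and 100.3 in parental. It fell 1.755-fold in shHIF2A (adjusted p = 0.0121) and 1.58-fold in shJUNs (adjusted p = 0.0342). The shHIF2A call was lost without parental replicate 2 or 3 or shHIF2A replicate 1 (adjusted p = 0.0548 to 0.0741), and the shJUNs call without parental replicate 2 or 3 or shJUNs replicate 1, 2 or 3 (adjusted p = 0.058 to 0.146). KIF14 fell 2.27-fold in shHIF2A (adjusted p = 0.0138), lost without parental replicate 3 or shHIF2A replicate 1 (adjusted p = 0.0556 to 0.076). ANLN, or anillin, a scaffold of the contractile ring, had 91.6, 157 and 253 CPM in shHIF2A, 165.5, 169 and 227 in shJUNs, 152, 221 and 296 in shYAPTAZ, against 126, 192 and 241 in parental. All groups of ANLN overlapped and no change passed, with log2 0.01 in shJUNs.

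Among genes of mitotic exit, 2 of 4 fell in shHIF2A, and 0 in shJUNs and shYAPTAZ. UBE2C, the conjugating enzyme of the anaphase-promoting complex, had 134, 223 and 371 CPM in shHIF2A, 253, 274 and 345 in shJUNs, 194, 327 and 323 in shYAPTAZ, against 439, 517 and 486 in parental. No knockdown library reached the lowest parental one. UBE2C fell 1.99-fold in shHIF2A (adjusted p = 0.0326), lost without parental replicate 1, 2 or 3 or shHIF2A replicate 2 (adjusted p = 0.0817 to 0.113), and missed in shJUNs (adjusted p = 0.103) and shYAPTAZ (adjusted p = 0.0732). PTTG1, or securin, which guards the cohesin ring until anaphase, fell 1.604-fold in shHIF2A (adjusted p = 0.0267), lost without parental replicate 3 or shHIF2A replicate 1 or 2 (adjusted p = 0.109 to 0.127). CDC20 had 106, 173 and 258 CPM in shHIF2A, 170.4, 213 and 226 in shJUNs, 182.5, 258 and 277 in shYAPTAZ, against 161, 191.5 and 211 in parental. Its groups overlapped throughout, and the log2 change was -0.07 in shHIF2A, 0.11 in shJUNs and 0.35 in shYAPTAZ, with adjusted p of 0.308 or more.

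Of 5 chromosome genes 4 fell in shHIF2A, 4 in shJUNs and 1 in shYAPTAZ, the largest share of a role in shHIF2A and shJUNs. TOP2A, the topoisomerase that untangles sister DNA, had 179.7, 284 and 318 CPM in shHIF2A, 319, 367.5 and 347 in shJUNs, 345, 404 and 369.9 in shYAPTAZ, against 529, 534 and 612 in parental. No knockdown library overlapped parental. TOP2A fell 2.145-fold (log2 change -1.10 ± 0.161 SE, adjusted p = 5.54e-05) in shHIF2A, 1.62-fold (log2 change -0.70 ± 0.16 SE, adjusted p = 0.00343) in shJUNs and 1.497-fold (log2 change -0.58 ± 0.16 SE, adjusted p = 0.00959) in shYAPTAZ by edgeR, and no single library ended a call. MKI67, whose product Ki-67 coats mitotic chromosomes and is the common stain for cycling cells, had 38.8, 70.8 and 91.8 CPM in shHIF2A, 69.7, 100.4 and 80.7 in shJUNs, 90.8, 144 and 123 in shYAPTAZ, against 144.5, 159 and 162.5 in parental. Here too every knockdown library was below parental. MKI67 fell 2.32-fold in shHIF2A (adjusted p = 0.00114) and 1.86-fold in shJUNs (adjusted p = 0.00952), the last lost without shJUNs replicate 1 (adjusted p = 0.0606), and did not pass in shYAPTAZ (adjusted p = 0.258).

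SMC4, the shared arm of both condensin complexes, had 154.5, 204 and 249 CPM in shHIF2A, 185, 221 and 185.5 in shJUNs, 271.5, 398 and 441 in shYAPTAZ, against 326, 365 and 361 in parental. The shHIF2A and shJUNs libraries were all below the lowest shYAPTAZ and the lowest parental library. SMC4 fell 1.73-fold in shHIF2A (adjusted p = 0.00295) and 1.78-fold in shJUNs (adjusted p = 0.00182), neither lost without 1 library. Of the condensin subunits that bind to it, NCAPG fell 1.98-fold in shHIF2A (adjusted p = 0.0295), lost without parental replicate 2 or 3 or shHIF2A replicate 1 or 2 (adjusted p = 0.0798 to 0.111). NCAPH fell 2.09-fold in shJUNs (adjusted p = 0.0221), lost without parental replicate 1 or 3 or shJUNs replicate 1, 2 or 3 (adjusted p = 0.0507 to 0.108).

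**Figure D3:**
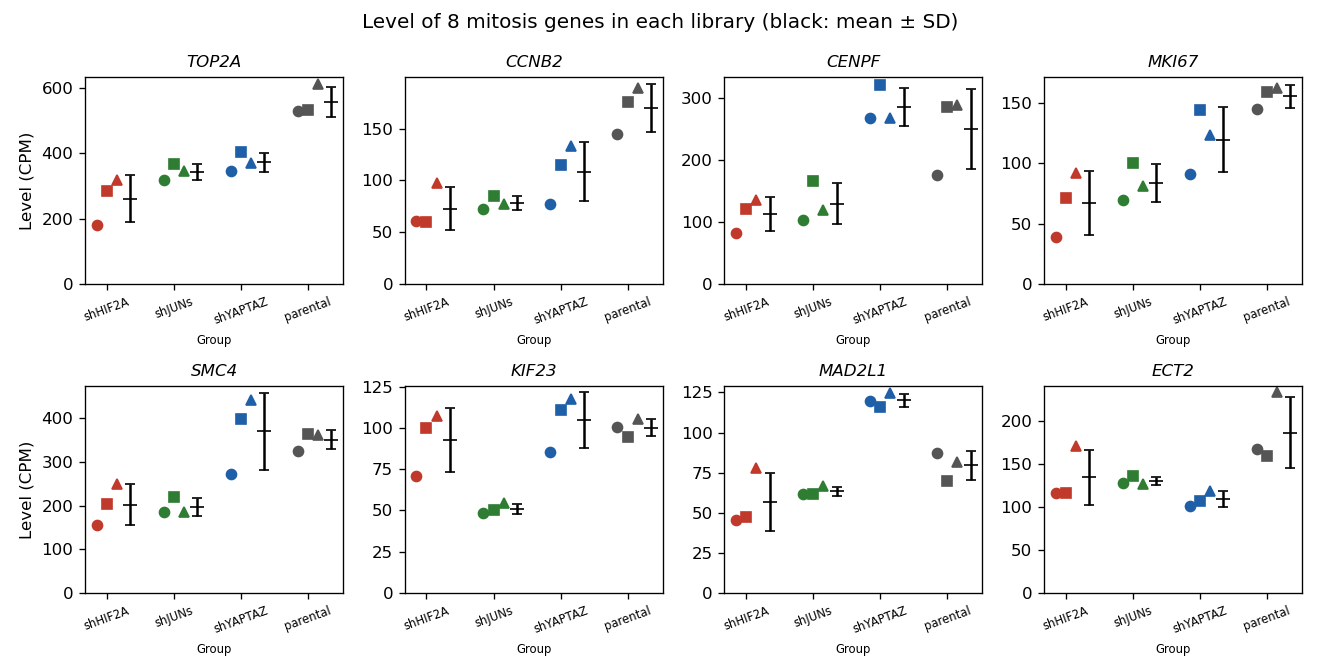
Level in CPM (vertical axis, from 0) of 8 mitosis genes in each library, by group along the horizontal axis, with the shape of a point giving the replicate number and black bars the mean ± SD of 3 libraries. TOP2A and CCNB2 are below parental in all knockdowns, CENPF and SMC4 in shHIF2A and shJUNs, KIF23 in shJUNs with 48.4 to 54.3 CPM, and MAD2L1 is highest in shYAPTAZ with 116 to 125 CPM.

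Over the 3 comparisons with parental, which share their parental libraries, 2 of the 48 genes fell in all knockdowns, TOP2A and CCNB2, against 2.85% of all genes. Another 13 fell in 2 knockdowns, 14 in 1 and 19 in none, against 4.64%, 12.2% and 80.3% of all genes. In 12 of the 22 shHIF2A calls, 9 of the 18 shJUNs calls and 2 of the 7 shYAPTAZ calls no single library ended the call. Leaving out every replicate 2 was harsher: over all 6 comparisons of pairs, 9 of 73 member calls were kept.

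In shJUNs against shHIF2A, 1 of 48 genes, KIF23, was lower and 0 were higher, against 3.17% lower and 4.36% higher over all genes. A missing call does not show that the groups act alike. In the fit of 12 libraries, CDK1 had a 95% interval of the log2 difference from -0.3718 to 0.5085. The interval of TOP2A was wholly positive, from 0.07182 to 0.7357, and its shJUNs libraries all lay above shHIF2A. It did not pass after adjustment (edgeR adjusted p = 0.138).

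Mitosis genes that differed were higher in shYAPTAZ than in the other knockdowns. Against shHIF2A, 13 of 48 mitosis genes were higher in shYAPTAZ and 0 lower, where 9.71% of all genes were higher and 8.72% lower. The count was 8 without shHIF2A replicate 1, 25 without shHIF2A replicate 3 and 20 without shYAPTAZ replicate 1, and 20 with no filter on low counts. In a fit of only the 6 libraries compared, the calls of TOP2A, TTK, KIF11 and MKI67 were lost. The 4 smallest p-values were those of CENPF, whose values stand above, at 2.54-fold (adjusted p = 0.000123), MAD2L1, SMC4 at 1.83-fold (adjusted p = 0.00126) and KIF20A at 1.985-fold (adjusted p = 0.00289). Of these 13, 8 calls survived the removal of each single library. Against shJUNs, 12 of 48 were higher in shYAPTAZ and 0 lower, where 7.87% of all genes were higher and 8.27% lower. The count was 6 without shJUNs replicate 1 or 2, 7 without shJUNs replicate 3 or shYAPTAZ replicate 3, and 5 without shYAPTAZ replicate 2. Beside KIF23, the smallest p-values were those of CENPF at 2.21-fold (adjusted p = 7e-04), SMC4 at 1.88-fold (adjusted p = 0.000916) and MAD2L1. With every replicate 2 left out 1 gene was higher in either comparison, and both share the shYAPTAZ libraries.

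**Figure D4:**
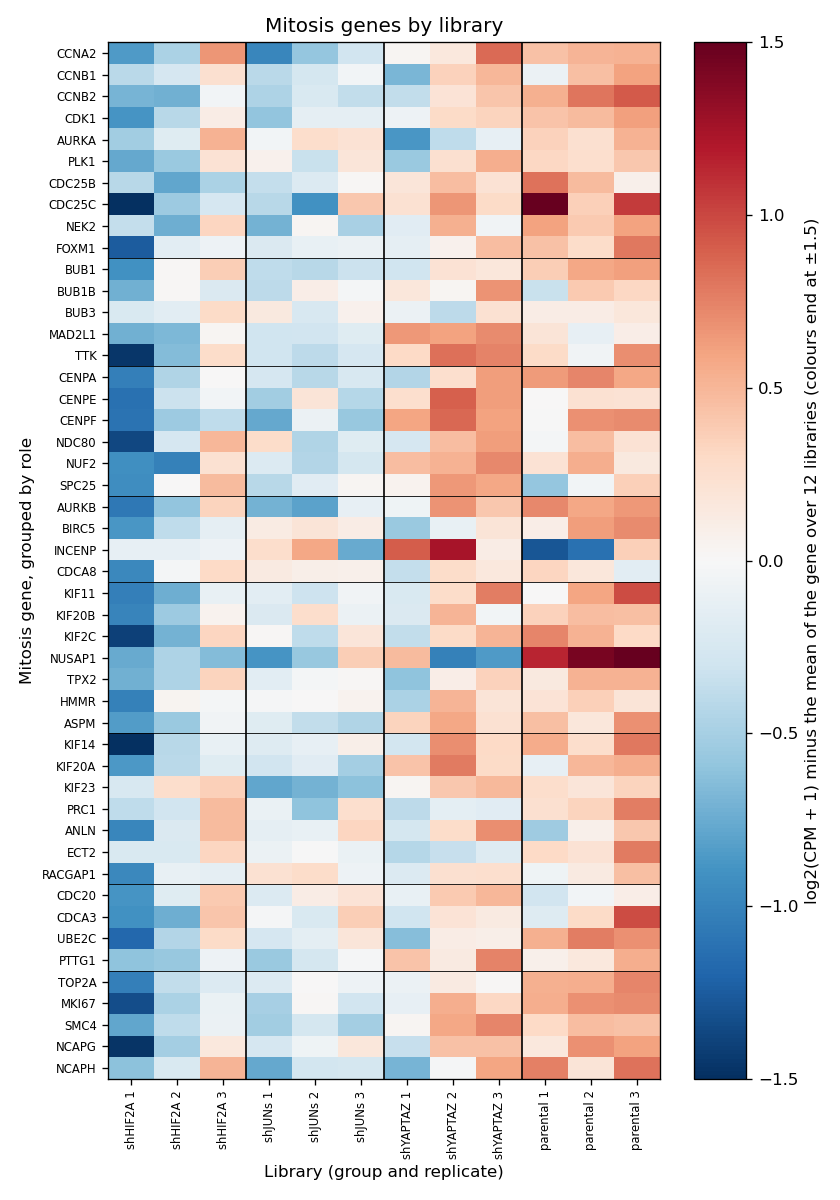
Level of each of the 48 mitosis genes in the 12 libraries as log2(CPM + 1) minus the mean of the gene over the libraries, with genes down the page by role, libraries across and colours that end at ±1.5. The shHIF2A replicate 1 column is the lowest of the 12 for 34 genes, parental replicate 3 the highest for 17 and shYAPTAZ replicate 3 for 11.

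The calls were also counted by CHR element, with no test. Of 31 mitosis genes with the element, 15 fell in shHIF2A, 13 in shJUNs and 4 in shYAPTAZ. The 4 in shYAPTAZ are near the 12.3% of all genes that fell there, beside 8.8% in shHIF2A and 8.93% in shJUNs. Of 9 matched genes without it, 4 fell in shHIF2A, 5 in shJUNs and 0 in shYAPTAZ. The median log2 change was -0.79 with and -0.68 without the element in shHIF2A, -0.63 with and -0.66 without it in shJUNs, and -0.19 with and -0.21 without it in shYAPTAZ.

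Beyond the 48 genes, lists of other genes of mitosis and its control were counted, beside all genes, of which in shHIF2A 8.8% fell and 9.84% rose, in shJUNs 8.93% fell and 10.3% rose, and in shYAPTAZ 12.3% fell and 13% rose. Of the 121 calls against parental among these genes and the shRNA targets, 26 were kept in every alternative run and 0 reversed. Among 37 regulators of the cell cycle tested, 3 rose and 13 fell in shHIF2A, 3 rose and 8 fell in shJUNs, and 5 rose and 9 fell in shYAPTAZ. With 1 library left out, 7 to 15 fell in shHIF2A (7 without shHIF2A replicate 1), 5 to 9 in shJUNs (5 without shJUNs replicate 1 or 3) and 7 to 13 in shYAPTAZ, while 1 rose in shHIF2A without parental replicate 1 or 3, in shJUNs without parental or shJUNs replicate 3, and in shYAPTAZ without parental replicate 1 or shYAPTAZ replicate 3. CCND1, cyclin D1, which drives cells out of G1 and is a known HIF2A target in this cancer, had 15.9, 13.1 and 34.3 CPM in shHIF2A, 84.3, 82.8 and 94.98 in shJUNs, 106, 88.5 and 135 in shYAPTAZ, against 967.5, 654 and 547 in parental. It fell 34.5-fold in shHIF2A, 8.26-fold in shJUNs and 6.565-fold in shYAPTAZ (adjusted p = 1.86e-08, 1.18e-06 and 2.2e-06 by edgeR). CKS1B, a small partner of the cyclin-dependent kinases, fell 2.715-fold in shHIF2A (adjusted p = 6.88e-05) and 2.35-fold in shJUNs (adjusted p = 0.000265). In shYAPTAZ it fell 1.63-fold (adjusted p = 0.0158), a call lost without parental replicate 1 or shYAPTAZ replicate 1 (adjusted p = 0.0506 to 0.0551). CDKN1A, the inhibitor p21, fell 1.73-fold in shHIF2A (adjusted p = 0.00762), 1.84-fold in shJUNs (adjusted p = 0.00299) and 9.34-fold in shYAPTAZ (adjusted p = 5.58e-10), with the shHIF2A call lost without parental replicate 1 (adjusted p = 0.0783). It was 5.41-fold lower in shYAPTAZ than in shHIF2A (adjusted p = 5.15e-08). RBL2, the p130 protein of the DREAM complex, fell 3.197-fold in shHIF2A (adjusted p = 0.000249) and 2.55-fold in shYAPTAZ (adjusted p = 0.00109).

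Of 32 further kinetochore and centromere genes, 1 rose and 5 fell in shHIF2A, 1 rose and 4 fell in shJUNs, and 3 rose and 1 fell in shYAPTAZ. With 1 library left out, 2 to 10 fell in shHIF2A (2 without shHIF2A replicate 1 and 10 without shHIF2A replicate 3), 0 to 5 in shJUNs (0 without shJUNs replicate 1 or 3) and 0 to 2 in shYAPTAZ (0 without parental replicate 2 or 3 or shYAPTAZ replicate 1). CENPT, which links the centromere to the outer kinetochore, went against the list and rose in every knockdown, with 42.6, 51.5 and 46.9 CPM in shHIF2A, 40.4, 41.4 and 58.1 in shJUNs, 49.9, 42.98 and 60 in shYAPTAZ, against 5.235, 12.9 and 11.02 in parental. The rise was 4.75-fold in shHIF2A, 4.72-fold in shJUNs and 5.16-fold in shYAPTAZ (adjusted p = 8.73e-06, 6.77e-06 and 2.09e-06). In shYAPTAZ CENPW, a protein of the centromere, rose as well, by 1.89-fold (adjusted p = 0.00589), a call lost without shYAPTAZ replicate 3 (adjusted p = 0.0563). Of 26 other spindle and cytokinesis genes, 0 rose and 8 fell in shHIF2A, 0 rose and 6 fell in shJUNs, and 2 rose and 3 fell in shYAPTAZ. With 1 library left out, 5 to 13 fell in shHIF2A (5 without shHIF2A replicate 1 and 13 without shHIF2A replicate 3), 3 to 7 in shJUNs (3 without shJUNs replicate 3) and 2 to 5 in shYAPTAZ (5 without shYAPTAZ replicate 3). GAS2L3, a linker of actin and microtubules, fell 4.196-fold in shHIF2A (adjusted p = 7.96e-06), 2.35-fold in shJUNs (adjusted p = 0.00113) and 2.38-fold in shYAPTAZ (adjusted p = 0.000749). KIF4A and DLGAP5 rose in shYAPTAZ, by 1.83-fold and 1.996-fold (adjusted p = 0.00695 and 0.00777), and KIF4A fell 1.64-fold in shHIF2A (adjusted p = 0.0392), a call lost without parental replicate 2 or 3 or shHIF2A replicate 1 or 2 or shYAPTAZ replicate 2 (adjusted p = 0.0518 to 0.184).

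Of 17 other condensin and cohesin genes, 0 rose in any knockdown, and 6 fell in shHIF2A, 6 in shJUNs and 2 in shYAPTAZ. The 2 in shYAPTAZ are 11.8%, near the 12.3% of all genes. With 1 library left out, 2 to 7 fell in shHIF2A (2 without shHIF2A replicate 1 and 3 without parental replicate 3), 3 to 7 in shJUNs (3 without parental replicate 3 or shJUNs replicate 1) and 1 to 6 in shYAPTAZ (1 without parental replicate 2 or 3 and 6 without parental replicate 1). RAD21, the cohesin subunit that is cut at anaphase, fell 1.702-fold in shHIF2A (adjusted p = 0.000624) and 1.66-fold in shJUNs (adjusted p = 0.000824). The 16 tested genes of the anaphase-promoting complex and its regulators gave 0 calls in shHIF2A by edgeR, DESeq2 and limma-voom, with 5 at an unadjusted edgeR p under 0.05, 1 higher and 1 lower in shJUNs, and 1 higher and 2 lower in shYAPTAZ. The shJUNs calls were each lost without any 1 of the shJUNs libraries, and the higher one in shYAPTAZ without any 1 of the parental libraries. Of 30 genes of DNA replication, which peak one phase earlier, 0 rose and 5 fell in shHIF2A, 1 rose and 1 fell in shJUNs, and 1 rose and 0 fell in shYAPTAZ. With 1 library left out, 2 to 8 fell in shHIF2A (2 without shHIF2A replicate 1 or parental replicate 3 and 8 without shHIF2A replicate 3), 0 to 1 in shJUNs and 0 to 3 in shYAPTAZ (3 without shYAPTAZ replicate 3). Of 13 other mRNAs of the late cycle, among them tubulins and HMGB2, 0 rose and 2 fell in shHIF2A, 1 rose and 1 fell in shJUNs, and 2 rose and 0 fell in shYAPTAZ.

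Some of these values share reads or stretches of the genome with other genes. FOXM1 overlaps genes on the other strand of which the largest had 1980 counts, against 1850 for FOXM1, and CENPA overlaps SLC35F6, with 6912 counts. KIF20A overlaps BRD8 and CDC23, CDC25C overlaps FAM53C, CCNA2 overlaps EXOSC9 and NCAPG overlaps LCORL, and SMC4 overlaps IFT80 and TRIM59. The pseudogene CDC20P1 took 183 counts, against 8490 for CDC20, and UBE2CP5 took 102, against 13560 for UBE2C.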

How the data were processed

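The deposited table holds raw read counts for each gene. Per the submitters' processing notes, the authors used Trim Galore and STAR with hg38. Not given in the sources used here are the counter, strand use, annotation release and any collapse of molecular identifiers. The column layout is that of featureCounts, per the file headers. Of 62705 lines after the header, 3 held 1 broken gene and were left out, which left 62702 genes. A symbol table named 62624 of them and 78 stayed under their IDs. Members, lists and promoter motifs were chosen with earlier results of these data known.

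Tests used edgeR 4.0.16 in R 4.3.3: filterByExpr by group, TMM scaling, 1 robust quasi-likelihood fit of 12 libraries with a mean per group, and Benjamini-Hochberg adjustment over 12301 genes at 0.05. A common dispersion of 0.0628 corresponds to a variation of 25.1% between libraries. SEs were computed from the log2 change and its F statistic. CPM are TMM-scaled, and log2 CPM in the heat map adds 1 to each value. A count of 3 in 1 library equals 0.671 to 1.32 CPM, for counting error only, and chi-squared per degree of freedom between replicates was 4.91 to 20.24, so no libraries agreed within sampling noise. Alternatives were DESeq2 1.42.0, limma-voom (limma 3.58.1), DESeq2 size factors, no filter, a mean of at least 10 CPM, 6-library fits, thinned counts, a replicate block, and leaving out each library. Leaving out each replicate number in all groups was added after seeing the data.

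Genes named with values were, in each knockdown against parental, the 6 members with the smallest p, in each pair of knockdowns the 4 with the smallest p, members called in 2 or more comparisons with parental, the extremes of each role, FOXM1, MKI67, the shRNA targets and up to 3 genes per other list. Other members were named after their values were seen. Sequences came from RefSeq promoters, GRCh38.p14.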

Additional observations from a re-analysis of the deposited data

How the results depend on the processing

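No alternative reversed the direction of a called mitosis gene. Of 73 calls of a member in a comparison, 73 were kept with DESeq2, limma-voom or DESeq2 size factors. Without a filter, or with a replicate block, 72 were kept, against 68 in fits of 6 libraries and 70 with thinned counts. Leaving out libraries cost more. With 1 library left out, 51 (without parental replicate 3) to 72 (without shHIF2A replicate 3) of the 73 were kept. Without every replicate 1, 2 or 3, the calls kept were 55, 9 and 60. Without a filter, 20 members were higher in shYAPTAZ against shHIF2A, 1 was higher in shJUNs against shHIF2A and 1 lower in shYAPTAZ against shJUNs, and 1 was higher in shJUNs against shHIF2A in a 6-library fit. Same-numbered libraries deviated together with correlations of -0.00955 to 0.22 over 18 pairs of libraries, above 0.1 in 5. For replicates 1 and 3 all were positive, from 0.0401 to 0.22, and for replicate 2 they were -0.00955 to 0.0131. Replicate 1 of a group and replicate 3 of another were always negatively correlated, down to -0.192. The replicate numbers thus share a pattern over the groups that the main fit left out, and its cause was not tested. With a replicate block, 37 members were lower in shHIF2A and 24 were higher in shYAPTAZ against shHIF2A, 2 higher in shJUNs against shHIF2A and 1 lower in shYAPTAZ against shJUNs.

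Leaving out 1 library, or 1 replicate number in all groups, gave 3 to 34 members lower in shHIF2A, 4 to 21 lower in shJUNs, and 0 to 7 lower and 0 to 1 higher in shYAPTAZ against parental. It gave 0 to 1 lower and 0 to 1 higher in shJUNs against shHIF2A, 1 to 25 higher in shYAPTAZ against shHIF2A, 1 to 15 higher and 0 to 1 lower in shYAPTAZ against shJUNs, and 4 to 37 that differed among the groups. The lowest counts came without every replicate 2, an alternative chosen after seeing the data. In shHIF2A against parental that run also lowered the number of genes called lower over the whole table. Low counts limit INCENP and NUSAP1, with 226 and 97 counts in all.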
